A study of Mus musculus with 8 samples.

Results

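Calcium entry channels, the sensors that open them and the NFAT factors downstream were followed through 4 groups of cultured mouse cardiac fibroblasts, which make the matrix of the heart. The set holds 10 genes of the 54532 in the deposited table, picked by symbol: Stim1, Stim2, Orai1, Trpv2, Trpv4, Cacna1c, Cacna1g, Nfatc1, Nfatc2 and Nfatc4. Vector groups carried a control vector, and EphrinB2 groups overexpressed EphrinB2, a ligand that sits in the membrane and binds Eph receptors. Cells of both kinds were cultured in complete medium or were induced with osteogenic medium and sampled on day 7, with 2 RNA libraries for each of the 4 groups. The labels name neither the promoter of the vector, nor the composition of either medium, nor the animals or strain. No label says whether a group's libraries stem from separate cultures or animals, and the p-values then cover library-to-library spread alone, which may be technical.

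Calcium entry through the plasma membrane is opened in several ways. In store-operated entry, STIM proteins sense the fall of calcium in the endoplasmic reticulum and gate ORAI pores. TRPV channels open to heat, swelling, stretch and lipids, and Cacna1c and Cacna1g encode the pores of an L-type and a T-type channel that open on depolarisation. Calcium bound to calmodulin activates the phosphatase calcineurin, which dephosphorylates NFAT factors and lets them enter the nucleus. In heart fibroblasts this route is known for its part in myofibroblast activation, and Nfatc1 is known as a driver of osteoclast formation in bone.

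Sequencing depth was 16493963 to 20550770 counted reads a library, an estimate made from the deposited FPKM (fragments per kilobase of exon, scaled to library size). Efnb2, the overexpressed gene, stood at 31.3 and 32.9 FPKM in EphrinB2 cells in complete medium against 6.30 and 5.56 in vector cells. In osteogenic medium it stood at 5.02 and 18.3 against 1.39 and 1.27. Libraries of a group lay close together in vector cells, with an SD of the log2 difference over genes of 0.261 and 0.234. In EphrinB2 cells this SD was 0.517 in complete and 0.657 in osteogenic medium. Such an SD cannot say which library of a pair deviates. EphrinB2 complete replicate 2 and EphrinB2 osteogenic replicate 1 were taken as the libraries that stood apart, a choice made without a test. All 12 fibroblast markers were above 1 FPKM in every library, with a summed level of 7103 to 8986 FPKM in complete and 3439 to 3539 in osteogenic medium. Col1a1, Col3a1 and Fn1, all matrix genes, made up most of each complete-medium sum. All 22 macrophage markers were also detected in every library. They summed to 1028 to 2333 FPKM in complete and 4512 to 8979 in osteogenic medium, with EphrinB2 osteogenic replicate 1 the highest. Lyz2, a lysozyme gene, made up most of each of these sums.

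All 10 genes passed the filter of 1 FPKM in at least 2 libraries. Nfatc2 reached that level in the 4 osteogenic libraries alone, and Cacna1g in the 4 complete-medium libraries alone, so each passed through the medium where it was higher. Differences are on the scale of log2(FPKM + 1), which understates the change of low genes, and were tested with limma on 12994 genes with Benjamini-Hochberg adjustment and a threshold of 0.05. Between media, 4 of the 10 genes passed in vector cells. Stim1, Trpv4 and Nfatc2 were higher in osteogenic medium and Cacna1g was lower, beside 7.52% of all genes tested. In EphrinB2 cells 4 of 10 also passed, beside 11.8% of all genes. There Stim1 and Trpv4 were higher and Stim2 and Cacna1g lower. The 10 genes and the gene lists below were chosen with earlier results of these data known. Setting their counts beside all genes is therefore no independent test. Overexpression of EphrinB2 gave 0 of 10 in either medium.

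Promoter sequence was available in RefSeq (GRCm38.p6) for 8 of the 10 genes, and not for Cacna1g. The 250 bases before the RefSeq start are shown for the other 4 genes that passed between media, 5′ to 3′ on the gene's strand. Stim1, Trpv4 and Nfatc2 are shown as genes that rose, and Stim2 as a STIM gene that fell. Capitals mark every match, on either strand, to GGAAA (the NFAT core), GGGCGG (the GC box) or TATAAA (the TATA box). TGTTCT, a hexamer bound by the glucocorticoid receptor, was searched as well and had no match in these 4 windows. The windows are chr7:102267569-102267818 (+) for Stim1, chr5:53998273-53998522 (+) for Stim2, chr5:114658422-114658671 (-) for Trpv4 and chr2:168601658-168601907 (-) for Nfatc2.
Stim1: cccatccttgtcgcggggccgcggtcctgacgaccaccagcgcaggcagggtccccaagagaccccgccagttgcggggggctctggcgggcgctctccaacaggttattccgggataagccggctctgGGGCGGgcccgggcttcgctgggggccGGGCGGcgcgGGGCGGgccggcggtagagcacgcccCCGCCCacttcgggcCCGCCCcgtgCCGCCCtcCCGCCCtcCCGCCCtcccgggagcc
Stim2: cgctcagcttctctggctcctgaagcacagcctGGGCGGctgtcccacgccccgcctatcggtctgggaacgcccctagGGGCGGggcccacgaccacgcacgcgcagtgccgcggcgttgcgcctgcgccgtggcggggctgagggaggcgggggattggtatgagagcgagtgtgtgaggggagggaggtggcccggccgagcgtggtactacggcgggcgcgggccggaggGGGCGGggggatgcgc
Trpv4: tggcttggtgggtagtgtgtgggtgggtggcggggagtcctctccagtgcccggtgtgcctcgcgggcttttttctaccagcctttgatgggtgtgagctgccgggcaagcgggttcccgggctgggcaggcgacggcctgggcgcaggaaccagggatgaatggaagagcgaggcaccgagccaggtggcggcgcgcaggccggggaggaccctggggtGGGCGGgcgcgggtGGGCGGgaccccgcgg
Nfatc2: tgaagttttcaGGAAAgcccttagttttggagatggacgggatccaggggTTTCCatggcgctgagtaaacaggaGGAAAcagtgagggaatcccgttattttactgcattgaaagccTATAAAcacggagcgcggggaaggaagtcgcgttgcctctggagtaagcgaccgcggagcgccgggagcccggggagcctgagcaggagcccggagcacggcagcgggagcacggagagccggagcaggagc
The STIM and Trpv4 windows were rich in G and C. The G and C content was 78.4% for Stim1, 74.8% for Stim2 and 72% for Trpv4, against a median of 52.4% over 32851 promoters. The Nfatc2 window held 59.6%. CpG pairs numbered 31, 30, 22 and 19 in the same order, against a median of 6. GGGCGG matched 8 times in Stim1, 3 times in Stim2, 2 times in Trpv4 and 0 times in Nfatc2, and 32.7% of all promoters of this length hold it. GGAAA was found 3 times in the Nfatc2 window and in none of the other 3, and 55.6% of all promoters hold it. TATAAA was found 1 time, also in Nfatc2, beside 12.4% of promoters, and TGTTCT occurs in 16.1%. Of the 2 Nfatc2 promoters in RefSeq, the one at the GENCODE start was used.

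Stim1 encodes the sensor that couples store depletion to ORAI opening (ENSMUSG00000030987, chr7:102267806-102437319, + strand, mm10). In vector cells it read 10.3 and 9.52 FPKM in complete and 35.5 and 38.6 in osteogenic medium. EphrinB2 cells had 9.10 and 13.3 FPKM in complete and 24.1 and 40.1 in osteogenic medium. All 4 osteogenic libraries lay above all 4 complete-medium libraries, and the EphrinB2 osteogenic pair lay farthest apart. The vector mean rose 3.74-fold, from 9.93 ± 0.569 to 37.1 ± 2.17 FPKM (SD, n = 2 each), a log2 difference of 1.80 (SE 0.275, limma adjusted p = 0.0114). The EphrinB2 mean rose 2.87-fold, from 11.2 ± 2.93 to 32.1 ± 11.3 FPKM (SD, n = 2 each), a log2 difference of 1.42 (SE 0.275, limma adjusted p = 0.0216). Stim1 was counted from 1823 to 8025 reads a library, so counting error is small beside the spread between libraries. In bulk RNA, a different share of cells of a type and a different amount of RNA per cell cannot be told apart.

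Stim2 encodes the second sensor, which responds to smaller falls of store calcium and sets basal entry (ENSMUSG00000039156, chr5:53998499-54121057, + strand). In vector cells it read 9.98 and 9.998 FPKM in complete and 6.69 and 6.64 in osteogenic medium. EphrinB2 cells had 10.8 and 14.9 FPKM in complete and 5.68 and 5.91 in osteogenic medium. Its order was opposite to that of Stim1, with every osteogenic library below every complete-medium library. In EphrinB2 cells the mean fell 2.22-fold, from 12.8 ± 2.87 to 5.79 ± 0.164 FPKM (SD, n = 2 each), a log2 difference of -1.01 (SE 0.170, limma adjusted p = 0.0133). In vector cells the difference of -0.52 (SE 0.170) had a limma adjusted p = 0.141. The difference between both effects was -0.49 (SE 0.240), with a limma adjusted p = 0.746, so the effect was not shown to differ between cells.

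The balance of both sensors therefore turned with the medium. FPKM values are per exon length, so levels of these genes can be set against each other, with the limit that EphrinB2 libraries of a group differ by gene length. In complete medium, Stim1 and Stim2 stood at a ratio of 1.04 and 0.953 in vector libraries and 0.842 and 0.891 in EphrinB2 libraries. In osteogenic medium the ratio was 5.31 and 5.81 in vector libraries and 4.24 and 6.79 in EphrinB2 libraries. The sum of both genes was 45.7% to 50.9% Stim1 in complete medium and 80.9% to 87.2% Stim1 in osteogenic medium.

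**Figure D1:**
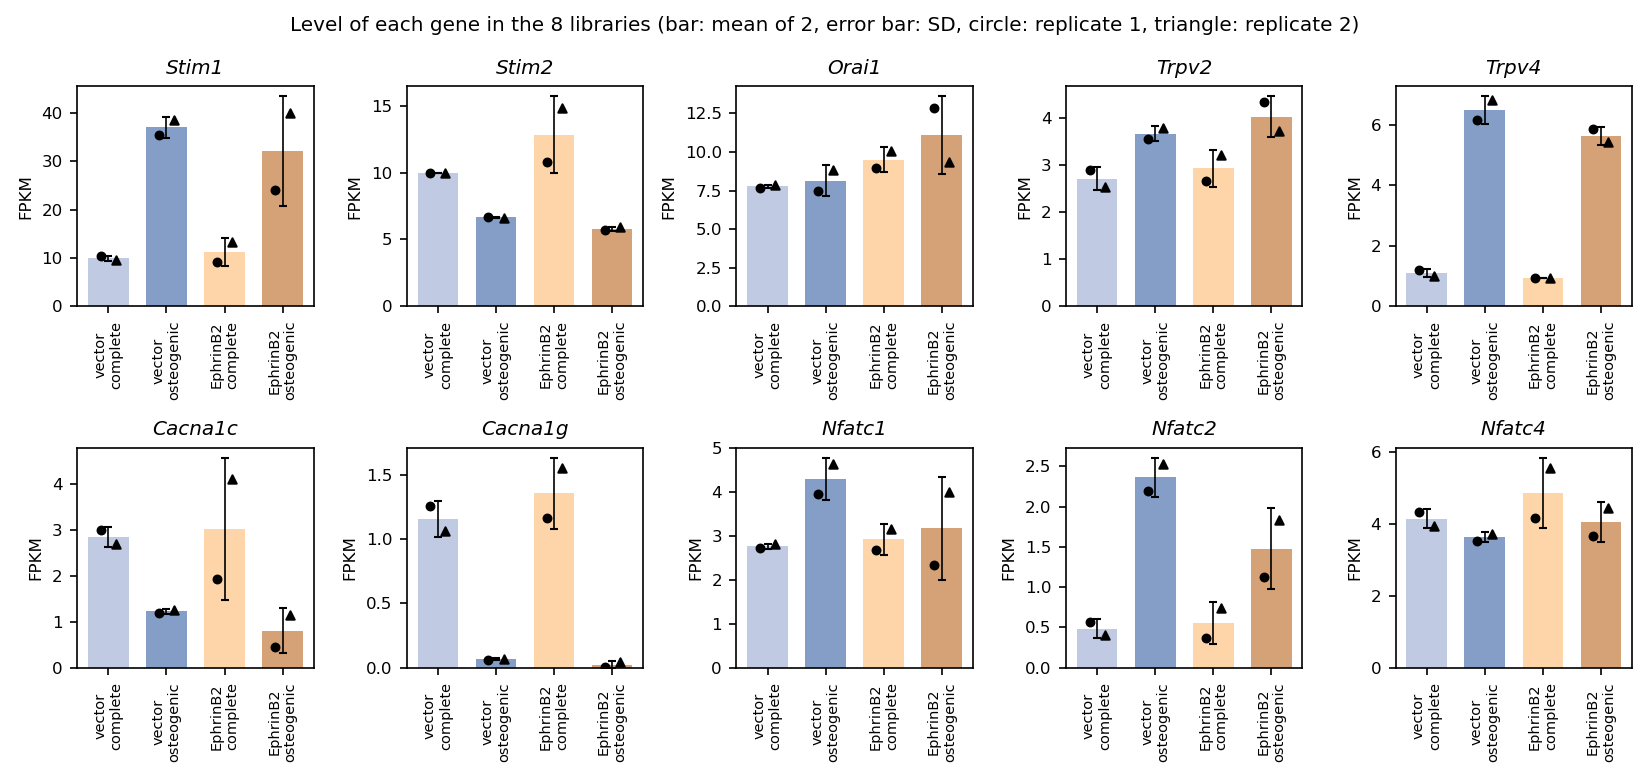
Level of each of the 10 genes in FPKM (y axis, linear from 0) in the 4 groups (x axis). Bars are means, error bars are SD, and circles and triangles are the libraries numbered 1 and 2. Stim1 and Trpv4 stand higher, and Stim2 and Cacna1g lower, in both osteogenic groups than in both complete-medium groups.

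Orai1 forms the pore that STIM proteins open (ENSMUSG00000049686, chr5:123015074-123030456, + strand). It read 7.69 and 7.84 FPKM in vector cells in complete and 7.45 and 8.85 in osteogenic medium. EphrinB2 cells read 8.96 and 10.1 FPKM in complete and 12.9 and 9.33 in osteogenic medium. Both media overlapped in either kind of cell, and the rise in Stim1 thus had no counterpart in Orai1 that passed the test. The medium difference was 0.06 (95% interval -0.38 to 0.50, limma adjusted p = 0.946) in vector and 0.19 (-0.25 to 0.63, limma adjusted p = 0.490) in EphrinB2 cells. These intervals exclude a change of the size seen for Stim1. Relative to Orai1, Stim1 stood at 1.02 to 1.34 in complete medium, and at 4.77 and 4.37 in vector and 1.87 and 4.30 in EphrinB2 osteogenic libraries. Orai1 made up 21.2% to 33.0% of the summed FPKM of the 3 ORAI genes, Orai2 23.6% to 40.3% and Orai3 29.2% to 44.0%. An antisense gene, Gm2479, overlaps Orai1, as Gm18255 overlaps Stim1 and Gm15820 overlaps Stim2 on the opposite strand. With the strand setting of the counting unknown, reads of such pairs cannot be told apart.

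Trpv4 encodes a channel opened by swelling, warmth and stretch (ENSMUSG00000014158, chr5:114622152-114658421, - strand). In vector cells it read 1.19 and 1.00 FPKM in complete and 6.17 and 6.81 in osteogenic medium. EphrinB2 cells had 0.940 and 0.937 FPKM in complete and 5.85 and 5.42 in osteogenic medium. The groups were far apart and their libraries close together in both kinds of cell. The mean rose 5.92-fold in vector cells, from 1.10 ± 0.134 to 6.49 ± 0.447 FPKM (SD, n = 2 each), a log2 difference of 1.84 (SE 0.132, limma adjusted p = 0.000712). It rose 6.003-fold in EphrinB2 cells, from 0.939 ± 0.00218 to 5.64 ± 0.304 FPKM (SD, n = 2 each), a log2 difference of 1.77 (SE 0.132, limma adjusted p = 0.000789). Reads numbered 63 to 91 in the complete-medium libraries and 426 to 537 in the osteogenic ones. Trpv4 passed under all 15 alternative settings in both cell kinds, at 1.77 to 2.46 in vector and 1.73 to 2.46 in EphrinB2 cells.

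Trpv2 encodes a related channel that is gated by stretch and growth factors (ENSMUSG00000018507, chr11:62574486-62600515, + strand). It read 2.89 and 2.54 FPKM in vector cells in complete and 3.56 and 3.79 in osteogenic medium. EphrinB2 cells read 2.66 and 3.22 FPKM in complete and 4.34 and 3.74 in osteogenic medium. Osteogenic libraries were the higher in both cell kinds without overlap, by much less than for Trpv4. The differences of 0.33 (SE 0.145, limma adjusted p = 0.279) and 0.36 (SE 0.145, limma adjusted p = 0.157) did not pass. The level of Trpv4 relative to Trpv2 was 0.291 to 0.412 in complete medium and 1.35 to 1.80 in osteogenic medium, so Trpv4 stood below Trpv2 in the former and above it in the latter.

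Cacna1g encodes the pore of the T-type channel Cav3.1, which opens at small depolarisations (ENSMUSG00000020866, chr11:94408391-94474198, - strand). The vector values were 1.26 and 1.06 FPKM in complete and 0.0612 and 0.0713 in osteogenic medium. The EphrinB2 values were 1.16 and 1.55 FPKM in complete and 0.00480 and 0.0409 in osteogenic medium. The osteogenic values rested on 12 and 14 reads in vector and 1 and 8 reads in EphrinB2 cells, against 200 to 259 in each complete-medium library. The log2 difference was -1.02 (SE 0.168, limma adjusted p = 0.0154) in vector and -1.20 (SE 0.168, limma adjusted p = 0.00702) in EphrinB2 cells. The scale compresses this fall. In reads pooled over a group and divided by depth, vector cells held 17.5 times more in complete medium (95% interval 11.8 to 27.1, counting error only) and EphrinB2 cells 60.1 times more (31.4 to 132.2). The EphrinB2 fold rests on few reads, being 32.7 (16.5 to 76.2) without EphrinB2 osteogenic replicate 1 and 279 without EphrinB2 osteogenic replicate 2, which leaves 1 read. With a pseudocount of 0.1 the log2 differences were -2.92 and -3.57.

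Cacna1c encodes the L-type pore Cav1.2 of heart and smooth muscle (ENSMUSG00000051331, chr6:118587240-119196418, - strand). The vector values were 3.01 and 2.70 FPKM in complete and 1.20 and 1.26 in osteogenic medium. The EphrinB2 values were 1.94 and 4.12 FPKM in complete and 0.457 and 1.16 in osteogenic medium. All osteogenic libraries lay below all complete-medium libraries, though the EphrinB2 pairs were widely spread. The log2 differences of -0.79 (SE 0.298, limma adjusted p = 0.204) and -1.13 (SE 0.298, limma adjusted p = 0.0577) did not pass. With a correction for exon length they passed at -0.74 (adjusted p = 0.0192, over the alternatives 0.00348 to 0.653) and -0.55 (adjusted p = 0.0456, over the alternatives 0.0232 to 0.235). At 21191 bases of merged exon, it is the longest of the 10. Dcp1b and a pair of other annotated genes overlap it, 2 of these 3 on the opposite strand. Relative to Cacna1g, Cacna1c stood at 1.67 to 2.66 in complete and 17.6 to 95.2 in osteogenic medium, the last from the library with 1 Cacna1g read.

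Nfatc2 encodes an NFAT factor first known from T cells (ENSMUSG00000027544, chr2:168476410-168601657, - strand). The vector values were 0.570 and 0.401 FPKM in complete and 2.19 and 2.53 in osteogenic medium. The EphrinB2 values were 0.372 and 0.739 FPKM in complete and 1.13 and 1.83 in osteogenic medium. Osteogenic libraries were the higher without overlap in both cell kinds, and the EphrinB2 ones lay below the vector ones. The vector mean rose 4.87-fold, from 0.486 ± 0.119 to 2.36 ± 0.241 FPKM (SD, n = 2 each), a log2 difference of 1.18 (SE 0.209, limma adjusted p = 0.0198). In EphrinB2 cells the log2 difference of 0.67 (SE 0.209) had a limma adjusted p = 0.0893 and did not pass. The difference between both effects, -0.51 (SE 0.295, limma adjusted p = 0.746), did not pass either. Nfatc2 was counted from 76 to 129 reads in complete-medium libraries and 245 to 519 in osteogenic ones.

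Nfatc1 (ENSMUSG00000033016, chr18:80606205-80713071, - strand), which amplifies its own transcription in osteoclast precursors, read 2.73 and 2.81 FPKM in vector cells in complete and 3.95 and 4.63 in osteogenic medium. EphrinB2 cells read 2.67 and 3.17 FPKM in complete and 2.34 and 3.998 in osteogenic medium. The vector groups did not overlap, while the EphrinB2 osteogenic pair lay on both sides of the complete-medium pair. Neither log2 difference passed, at 0.49 (SE 0.211, limma adjusted p = 0.274) and 0.06 (SE 0.211, limma adjusted p = 0.847). The gene AC123818.1 overlaps Nfatc1 on the opposite strand, and its reads cannot be told apart.

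Nfatc4 (ENSMUSG00000023411, chr14:55823144-55833943, + strand), known for its part in cardiac hypertrophy, read 4.34 and 3.95 FPKM in vector cells in complete and 3.53 and 3.73 in osteogenic medium. EphrinB2 cells read 4.17 and 5.54 FPKM in complete and 3.66 and 4.44 in osteogenic medium. The level was lower in osteogenic medium on average, with overlap in EphrinB2 cells. The log2 differences of -0.15 (95% interval -0.54 to 0.24, limma adjusted p = 0.754) and -0.21 (-0.60 to 0.18, limma adjusted p = 0.400) did not pass.

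The NFAT make-up shifted toward Nfatc2. Of the summed FPKM of Nfatc1 to Nfatc4, Nfatc2 took 2.70% to 3.81% in complete and 11.4% to 14.9% in osteogenic medium. Nfatc1 took 14.8% to 19.6% and then 23.6% to 27.2%. Nfatc3, the most abundant of the 4 in complete medium and not among the 10 genes, took 47.8% to 55.7% and then 28.1% to 37.3%. Its own medium differences, -0.24 (limma adjusted p = 0.813) in vector and -0.99 (limma adjusted p = 0.102) in EphrinB2 cells, did not pass. Nfatc4 took 26.0% to 30.2% and then 21.9% to 37.0%, with overlap.

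**Figure D2:**
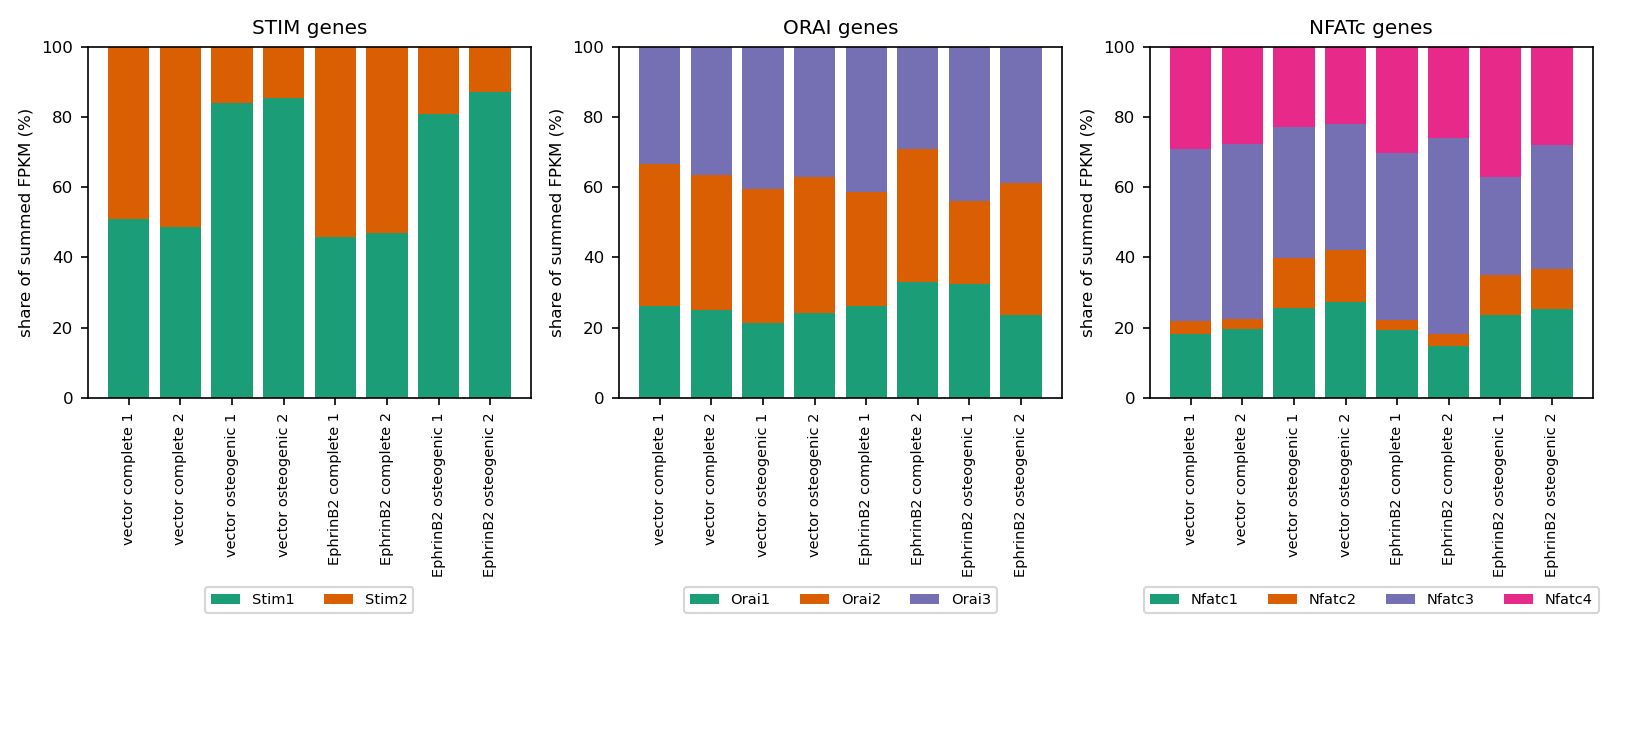
Share of each gene in the summed FPKM of its family (y axis, %) in the 8 libraries (x axis), for STIM, ORAI and NFATc genes. The Stim1 share is 45.7% to 50.9% in complete and 80.9% to 87.2% in osteogenic medium, and the Nfatc2 share 2.70% to 3.81% and 11.4% to 14.9%.

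The order of the 10 levels differed between media. In complete medium Stim2 and Stim1 led in both kinds of cell, did not differ from each other beyond their libraries' range, and were followed by Orai1, whose range overlapped that of Stim1 in EphrinB2 cells. Nfatc4 came next. Cacna1c, Nfatc1 and Trpv2 followed with overlapping ranges, then Cacna1g and Trpv4, which overlapped in vector cells only, and Nfatc2 was lowest. In osteogenic medium Stim1 stood alone at the top, followed by Orai1. Stim2 and Trpv4 came next with overlapping ranges, while Nfatc1, Trpv2 and Nfatc4 held the middle. Nfatc2, Cacna1c and Cacna1g closed the order in both kinds of cell.

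Both libraries of a group did not overlap between media for 9 of 10 genes in vector cells, all but Orai1, beside 73.2% of all genes tested. In EphrinB2 cells 7 of 10 did not overlap, beside 47.9% of all genes. Groups without overlap were thus common among all genes, most of all in vector cells. The median log2 difference of the 10 genes was 0.19 in vector and 0.13 in EphrinB2 cells, against -0.02 and 0.03 over all genes, since higher and lower members balanced. At an unadjusted p under 0.05 stood 6 of 10 in vector and 7 of 10 in EphrinB2 cells, against 2532 and 3921 of 12994 genes.

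**Figure D3:**
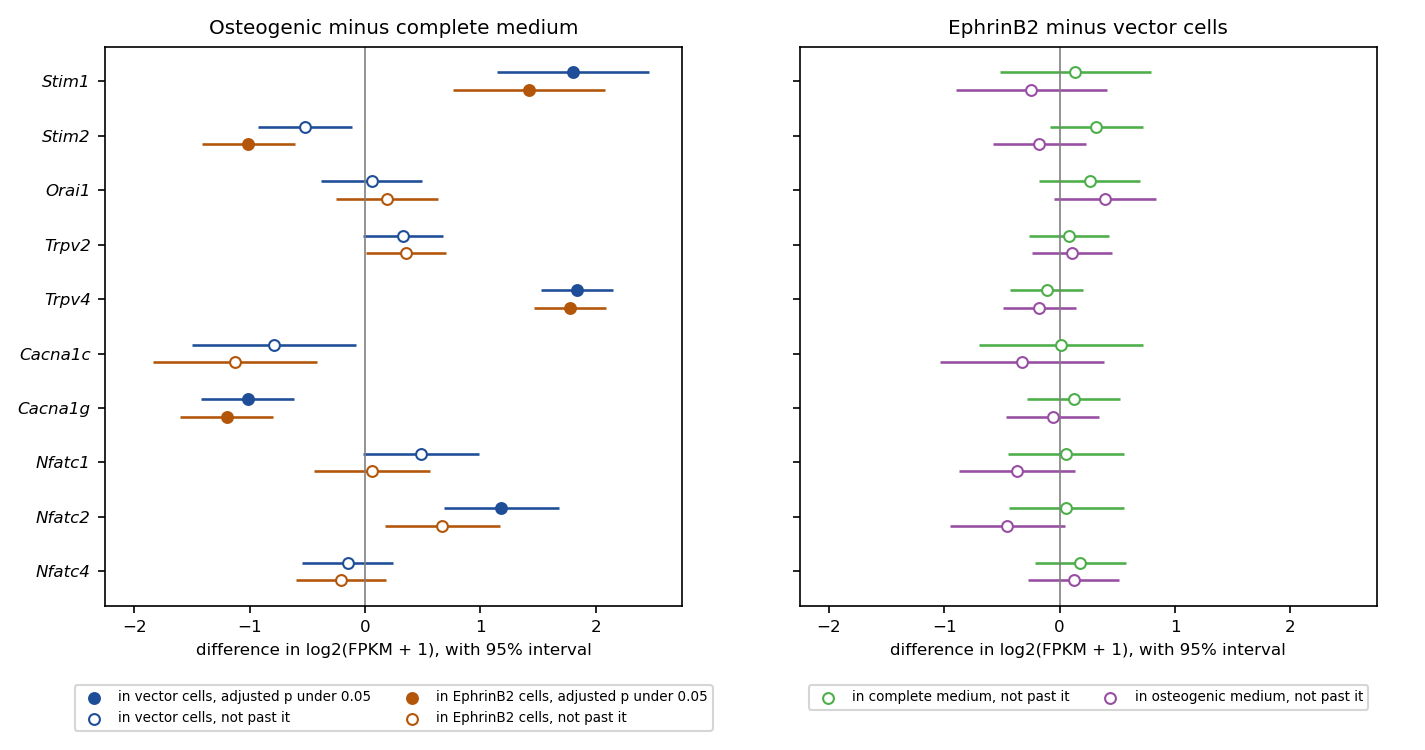
Difference in log2(FPKM + 1) with its 95% interval (x axis) for each of the 10 genes (rows), between media on the left and between EphrinB2 and vector cells on the right. Filled points have an adjusted p under 0.05. Filled points are found for 4 genes in each kind of cell on the left and for 0 on the right.

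EphrinB2 overexpression moved none of the 10 genes past the threshold, and the test did not call the overexpressed gene either. Efnb2 itself stood at 2.26 (SE 0.477, limma adjusted p = 1) in complete and at 2.21 (SE 0.477, limma adjusted p = 0.567) in osteogenic medium. A lack of calls here is therefore no sign that the 10 genes stayed the same. In complete medium 0 of 10 passed, beside 0.00770% of all genes, with 0 at an unadjusted p under 0.05. The log2 differences ran from -0.11 for Trpv4 to 0.32 for Stim2 (SE 0.170), and every limma adjusted p was 1. In 3 of 10 genes, Stim2, Orai1 and Trpv4, the groups did not overlap, beside 25.8% of all genes. In osteogenic medium 0 of 10 passed, beside 0% of all genes, again with 0 at an unadjusted p under 0.05. There, the values ran from -0.45 (95% interval -0.95 to 0.05) for Nfatc2 to 0.39 (-0.05 to 0.83) for Orai1, with limma adjusted p from 0.567 to 0.855. Groups did not overlap for 6 of 10, beside 47.9% of all genes. These were Stim2, Trpv4, Cacna1c, Cacna1g and Nfatc2, lower with EphrinB2, and Orai1, higher with EphrinB2. Without EphrinB2 osteogenic replicate 2, Orai1 passed at 0.60 (adjusted p = 0.0449, over the alternatives 0.0449 to 1) and Nfatc1 at -0.66 (adjusted p = 0.0397, over the alternatives 0.0397 to 1). In that fit 2 of 10 passed, beside 21.1% of all genes, and the group rests on the library that stood apart.

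The interaction of EphrinB2 and medium gave 0 of 10, beside 0% of all genes, and 0 at an unadjusted p under 0.05. Nfatc2 at -0.51, Stim2 at -0.49, Nfatc1 at -0.42 and Stim1 at -0.38 had the lowest values, all with a limma adjusted p = 0.746. The 95% intervals, from -1.22 to 0.19 for Nfatc2 and from -1.31 to 0.55 for Stim1, leave room for differences as large as the medium effects of several genes. The 10 genes' median was -0.26, against 0.00 over all genes.

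Over all genes, differences within EphrinB2 pairs went with gene length, which the 10 genes followed in part. They span 2295 bases of merged exon (Orai1) to 21191 (Cacna1c). Spearman's rho of the partner difference with exon length was 0.44 in complete and 0.508 in osteogenic medium, against 0.0366 and -0.0177 in vector cells (across genes, which are not independent replicates). In osteogenic medium the partners differed by -0.42 for Orai1, -0.17 for Trpv2 and -0.09 for Trpv4. For Stim2 and Nfatc4, of middle length, they differed by 0.05 and 0.22. For the longer genes the differences were 0.71 for Stim1, 0.58 for Nfatc1, 0.57 for Cacna1c and 0.41 for Nfatc2, but 0.05 for Cacna1g, which is at 1 and 8 reads there. In complete medium the differences ran from -0.00 for Trpv4 to 0.80 for Cacna1c, with 0.15 for Orai1, 0.18 for Nfatc1, 0.43 for Stim2 and 0.50 for Stim1. In the vector pairs all 10 genes differed by between -0.16 and 0.22. Stim1, Nfatc2, Nfatc4 and Cacna1c thus had EphrinB2 pairs wider than any vector pair of the 10 genes in both media, though Nfatc4 barely so in osteogenic medium. Stim2 and Cacna1g did so in complete and Nfatc1 and Orai1 in osteogenic medium, and Trpv2 and Trpv4 in neither.

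**Figure D4:**
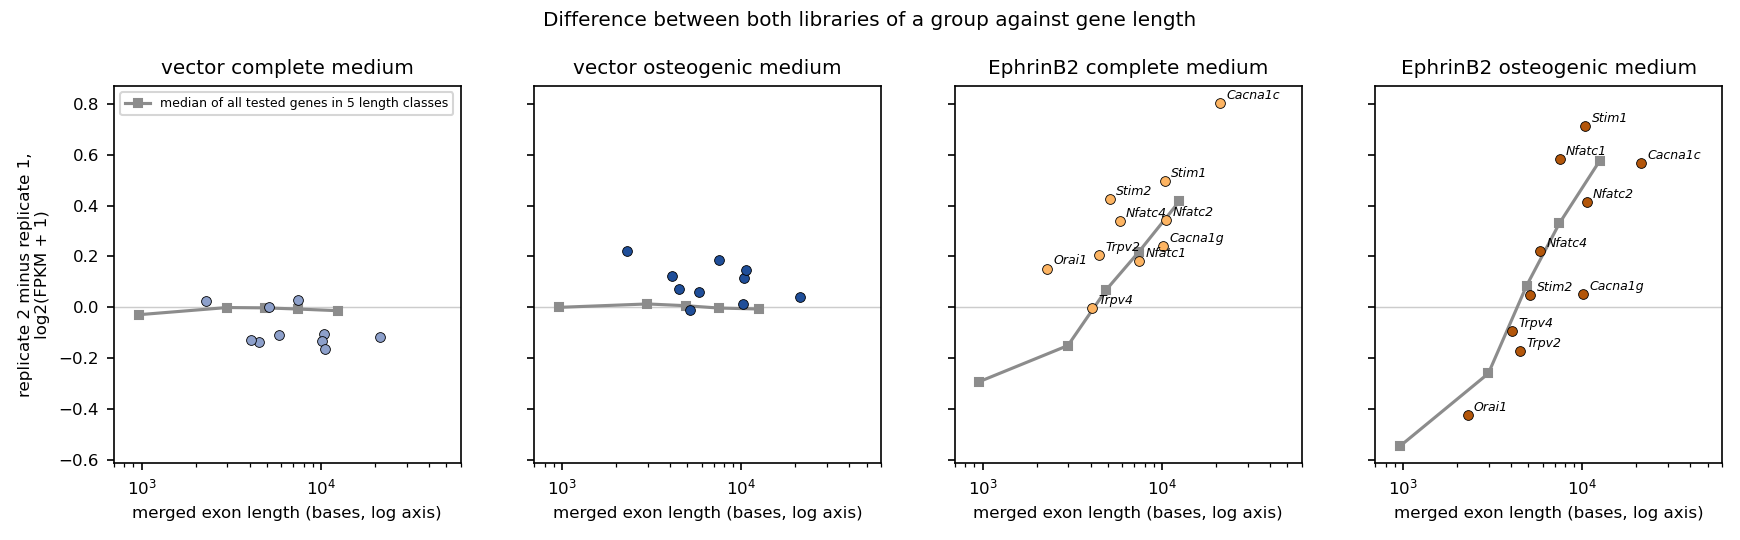
Difference in log2(FPKM + 1) between both libraries of a group (y axis) against merged exon length in bases (x axis, log scale). Coloured points are the 10 genes, named in the EphrinB2 panels, and grey squares are medians of all tested genes in 5 length classes. The medians rise with length from -0.546 to 0.577 in EphrinB2 cells in osteogenic medium and stay near 0 in vector cells.

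The number of genes past the threshold depended on which libraries set the spread. With the 4 vector libraries alone, 8 of 10 passed, beside 40.6% of all genes. Stim1, Trpv2, Trpv4, Nfatc1 and Nfatc2 were then higher and Stim2, Cacna1c and Cacna1g lower. With the 4 EphrinB2 libraries alone, 1 of 10 passed, Trpv4 (adjusted p = 0.0347, over the alternatives 0.000282 to 0.0347), beside 1.18% of all genes. Without both libraries that stood apart, 8 of 10 passed in vector cells (40.6% of all genes) and 5 of 10 in EphrinB2 cells (29.7% of all genes). Those 5 were Stim1 at 2.03, Trpv4 at 1.73, Nfatc2 at 1.05, Stim2 at -0.77 and Cacna1g at -1.05. With a correction for exon length 5 of 10 passed in vector cells (12.0% of all genes) and 6 of 10 in EphrinB2 cells (17.5% of all genes). Leaving out any 1 of the 4 vector libraries left 1 of 10 in vector cells, Trpv4. Over all genes 1.49% and 1.47% then passed without a complete-medium library, and 1.60% and 1.30% without an osteogenic one. Stim1, Cacna1g and Nfatc2 kept log2 differences of 1.74 to 1.86, -1.08 to -0.95 and 1.10 to 1.26 there, with adjusted p up to 0.117, 0.153 and 0.182. In EphrinB2 cells Stim1 lost its call without any 1 of the 4 vector libraries and without either EphrinB2 library in complete medium, with adjusted p up to 0.0653. Its log2 difference stayed at 1.42 without a vector library and was 1.17 and 1.67 without EphrinB2 complete replicate 1 or 2.

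No gene on a list of store-operated entry partners passed, beside Stim1 in both kinds of cell and Stim2 in EphrinB2 cells. Of 10 listed genes, which include Orai2, Orai3 and the STIM inhibitor Saraf, 8 were tested and 0 passed in either kind of cell. Their median log2 differences were 0.16 and 0.21. Cracr2a, a calcium-binding partner of ORAI and STIM, had the smallest p in vector cells, at 0.54 (limma adjusted p = 0.251). Cracr2b, its relative, had the smallest in EphrinB2 cells, at 0.45 (limma adjusted p = 0.162). In the vector libraries alone 4 of the 8 were higher and 1 lower, beside 40.6% of all genes. With all 8 libraries, 7.52% of all genes passed in vector and 11.8% in EphrinB2 cells, beside this list and those below.

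Other subunits of voltage-gated channels were mostly low. Of 18 listed genes 5 were tested, and 0 passed in either kind of cell, with medians of -0.54 and -0.34. In vector cells Cacnb1, a cytoplasmic beta subunit, had the smallest p, at -0.58 (limma adjusted p = 0.0579). In EphrinB2 cells it was Cacna2d1, an alpha-2-delta subunit, at -0.66 (limma adjusted p = 0.111). Taken alone, the vector libraries gave 4 of the 5 past the threshold, all lower, beside 40.6% of all genes.

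Of 22 other TRP, polycystin and Piezo channels 8 were tested and 1 passed in each kind of cell. Piezo2, a stretch-gated channel of touch and proprioception, read 7.62 and 7.20 FPKM in vector cells in complete and 1.00 and 0.940 in osteogenic medium. EphrinB2 cells read 7.49 and 13.1 FPKM in complete and 0.374 and 0.997 in osteogenic medium. Piezo2 fell, by 2.09 on the log2 scale (SE 0.276, limma adjusted p = 0.00687) in vector and by 2.73 (SE 0.276, limma adjusted p = 0.00208) in EphrinB2 cells. Piezo2 was thus low in the same libraries in which Trpv4 was high. The medians of the 8 were -0.17 and -0.53.

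Genes of store release, pumps and exchangers had 10 of 18 tested and 0 past the threshold in vector cells. In EphrinB2 cells Slc8b1, the mitochondrial sodium-calcium exchanger, rose by 1.27 (limma adjusted p = 0.0154). Slc8a1, the exchanger of the plasma membrane, fell by 3.40 on the log2 scale there (limma adjusted p = 0.0278). Slc8a1 read 31.0 and 69.7 FPKM in EphrinB2 cells in complete and 1.03 and 8.96 in osteogenic medium. In vector cells it read 42.8 and 39.9 FPKM, then 9.81 and 9.44, a difference of -1.99 (limma adjusted p = 0.179). Slc8b1 had the smallest p in vector cells, at 0.87 (limma adjusted p = 0.0693). None of the 8 genes of mitochondrial uptake passed in either kind of cell. The smallest p was that of Micu2, a gatekeeper of the uniporter, at -0.49 in vector cells (limma adjusted p = 0.134). In EphrinB2 cells it was that of Mcu, its pore, at -0.92 (limma adjusted p = 0.0529).

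Between calcium and NFAT, 12 of 14 genes of calmodulin, calcineurin and its inhibitors were tested. None passed in vector cells, and 1 fell in EphrinB2 cells. It was Rcan2, a calcineurin regulator, at -1.11 (limma adjusted p = 0.0210), beside -0.89 (limma adjusted p = 0.0558) in vector cells. Rcan1, a classical NFAT target, stood at 3.79 and 4.43 FPKM in vector cells in complete medium, then at 5.54 and 5.46 after osteogenic induction. Its differences of 0.35 (limma adjusted p = 0.427) in vector and 0.48 (limma adjusted p = 0.161) in EphrinB2 cells did not pass, and it is named here after its values were seen. Of 11 other NFAT factors, NFAT kinases and partners 9 were tested. None passed in vector cells, where Xpo1, the export receptor that returns NFAT to the cytoplasm, had the smallest p at -0.39 (limma adjusted p = 0.228). Xpo1 fell by 0.71 on the log2 scale in EphrinB2 cells (limma adjusted p = 0.0321), the 1 of 9 that passed there. Taken alone, the vector libraries gave 7 of these 9 past the threshold, all lower. In those libraries alone 5 of 8 other TRP, polycystin and Piezo channels, 4 of 10 genes of release, pumps and exchangers, 4 of 8 of mitochondrial uptake and 7 of 12 of calmodulin and calcineurin passed, beside 40.6% of all genes.

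Osteoclast genes are a known readout of Nfatc1, whose part in their values was not tested here. Of 10 listed 6 were tested, and 3 rose and 1 fell in vector cells, beside 7.52% of all genes. Acp5, tartrate-resistant acid phosphatase, rose by 2.33 (limma adjusted p = 0.00430), Mmp9 by 1.79 (limma adjusted p = 0.0118) and Tnfrsf11a, the RANK receptor, by 0.92 (limma adjusted p = 0.0246). Acp5 and Mmp9 were under 1 FPKM in every complete-medium library, so both passed the filter through osteogenic libraries alone. Atp6v0d2, a proton pump subunit, fell by 0.84 on the log2 scale (limma adjusted p = 0.0317). In EphrinB2 cells Acp5 rose by 1.77 (limma adjusted p = 0.0100), while Atp6v0d2 and Itgb3, the beta-3 integrin, fell by 0.71 and 1.09 on the log2 scale (limma adjusted p = 0.0417 and 0.0168). These 3 of the 6 stood beside 11.8% of all genes. Oscar, Dcstamp, Ocstamp and Calcr, further osteoclast genes, stayed under 1 FPKM in all libraries. With the vector libraries alone 6 of 6 passed, 3 higher and 3 lower, and with the EphrinB2 libraries alone 0 of 6, beside 40.6% and 1.18% of all genes. Between EphrinB2 and vector cells, and for the interaction, 0 genes of any of these lists passed.

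Markers of other cells moved with the medium, beside the genes that rose. Of 22 macrophage markers 10 rose in vector cells, where 7.52% of all genes passed. In EphrinB2 cells 18 rose and 1 fell, beside 11.8% of all genes. The medians of the 22 markers were 1.21 and 1.64. The largest rise in both was that of Cd163, a scavenger receptor of macrophages, at 4.01 and 3.43. Cd163 was under 1 FPKM in every complete-medium library, so it passed the filter through the osteogenic libraries alone. The summed macrophage level was 5094 and 5356 FPKM in vector and 8979 and 4512 in EphrinB2 osteogenic libraries. Lyz2 made up most of the sum in every library, with 6061 of the 8979 FPKM in EphrinB2 osteogenic replicate 1. In that library 16 of the 22 markers were higher than in its partner, among them C1qa at 829.7 against 362.7 FPKM and Ctss at 274.6 against 137.2. The other 6 were lower, among them Mertk at 12.2 against 23.2 FPKM and Cd163 at 10.2 against 16.2. Of the 10 genes, Orai1, Trpv2 and Trpv4 were higher in that library than in its partner, Trpv4 only a little, at 5.85 and 5.42. The others, Stim1, Nfatc1 and Nfatc2 among them, were lower. Over all genes, EphrinB2 osteogenic replicate 1 read short genes higher and long genes lower than its partner. The median of replicate 2 minus replicate 1 was -0.546 up to 2000 bases and 0.577 above 10000 bases. With the exon length correction the macrophage medians were 1.225 in vector and 1.292 in EphrinB2 cells. How far gene length sets these library differences was not tested. Trpv2 and Nfatc2 are known to be expressed in macrophages. The part of macrophages in the differences of any of the 10 genes, Stim1 and Trpv4 included, was not tested. With the vector libraries alone, 20 of the 22 rose, beside 40.6% of all genes. With the EphrinB2 libraries alone 1 rose, beside 1.18% of all genes.

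The 12 T and B lymphocyte markers summed to 0.225 to 1.55 FPKM, with 5 to 8 of 12 at 0 in each library, and 11 of the 12 stayed under 1 FPKM in all libraries. The exception was Trac, the T-cell receptor alpha constant gene, at 1.05 and 1.36 FPKM in EphrinB2 cells in complete medium. Trac passed the filter through this group alone, the one where it was highest. In EphrinB2 cells it fell by 0.96 on the log2 scale in osteogenic medium (limma adjusted p = 0.0253), but did not pass with the EphrinB2 libraries alone. In vector cells it stood at -0.63 (limma adjusted p = 0.122), and passed with the vector libraries alone. Its part in the values of Nfatc2 was not tested. Of 10 cardiomyocyte markers 3 to 6 were at 0 in each library, and Tnnt2 was the 1 that was tested. Tnnt2 passed the filter through the osteogenic libraries alone, being under 1 FPKM in every complete-medium library. It rose by 2.12 in vector cells and by 2.80 in EphrinB2 cells, from 0.624 to 6.04 and from 0.730 to 11.5 FPKM, while Cacna1c, a channel of cardiomyocytes, was lower in the same libraries. Of the 6 tested smooth muscle and pericyte markers 0 passed in vector cells and Mcam fell in EphrinB2 cells, by 1.08 on the log2 scale. Myh11 was the 1 of these 6 that stood higher in osteogenic medium, at 0.85 (limma adjusted p = 0.106) and 0.67 (limma adjusted p = 0.131). It was under 1 FPKM in every complete-medium library, so it passed the filter through the osteogenic libraries alone. The 10 listed summed to 844 to 1104 FPKM in complete and 476 to 943 in osteogenic medium, and Acta2 made up most of each sum. Of 3 tested endothelial markers Cdh5 fell in both, by 1.13 and 1.21 on the log2 scale. Cdh5 was under 1 FPKM in every osteogenic library, so it passed the filter through the complete-medium libraries alone. Tek stood higher in both without passing, by 0.80 (limma adjusted p = 0.0554) and 0.50 (limma adjusted p = 0.137). Pecam1, at -0.62 and -0.51, did not pass. The 10 listed summed to 9.45 to 14.3 FPKM, and Tek made up most of that sum in every osteogenic library. Fibroblast markers split, with 1 of 12 risen and 5 fallen in each kind of cell, among them Postn at -2.20 and -2.36 and Col1a1 at -1.74 and -2.35. Those that fell were all matrix genes, namely Col1a1, Col1a2, Col3a1, Fn1 and Postn. Dcn rose by 1.46 and 2.16. Pdgfra, Tcf21, Lum, Thy1, Vim and Ddr2 did not pass in either kind of cell. Beside these marker counts, 7.52% of all genes passed in vector and 11.8% in EphrinB2 cells. The part of these cell types in the differences of Cacna1c and Cacna1g was not tested.

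Other genes shared the profile of single members across the 8 libraries. Likeness was measured as the root mean square difference of log2(FPKM + 1), each gene centred on its own mean, over 11116 protein-coding genes, and is a description without a test. For Stim1, whose own spread was 0.841, the nearest were Stard8 at 0.0784 and Slc25a23 at 0.0889. For Trpv4, with a spread of 0.907, they were Shtn1 at 0.0694 and Alox5 at 0.0771. Shtn1 read 2.22 and 1.88 FPKM in vector cells in complete and 9.34 and 10.8 in osteogenic medium. Cacna1g (0.560) was nearest to Mdga1 at 0.0462 and Astn2 at 0.0567, and Nfatc2 (0.510) to Tmod1 at 0.0524 and Pik3cg at 0.0786. Stim2 (0.418) was nearest to Clip2 at 0.0583 and Endod1 at 0.0643, and Cacna1c (0.552) to Ttc3 at 0.0693 and Samd5 at 0.0749. The other 4 genes varied little over the libraries, with spreads of 0.159 to 0.249, so their neighbours say less. They were Sart1 and Faf1 for Orai1, Cebpz and Mon1a for Trpv2, Pias1 and Tpp1 for Nfatc1, and 4833439L19Rik and Ptpdc1 for Nfatc4. All neighbours were taken from the same 8 libraries, so they share depth and medium.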

How the data were processed

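RNA from mouse cardiac fibroblasts was sequenced in 8 libraries, 2 for each of 4 groups. The deposited table gives FPKM values per Ensembl gene, made by the authors. Per the submitters' processing notes the tools were HISAT2 2.0.5, featureCounts 1.5.0-p3, CASAVA and DESeq2 1.16.1, and the build was mm10. The sources used here do not give the annotation release, the strand setting or any filter. GENCODE M21 on GRCm38 (the assembly of mm10) gave names, positions and the merged length of exons and matched 54409 of the 54532 identifiers, and promoters came from RefSeq on GRCm38.p6.

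No counts were used, so no count model was the main test. The product of FPKM and exon length fell on whole steps (tolerance 0.02 reads) in 98.1% to 98.3% of the genes below 50 reads, and the step of a library gave its depth. Read numbers are estimates from that step, and intervals on them cover counting error only. Reads were within that tolerance of whole for 9 of the 10 genes, while Nfatc1 was off by up to 0.271 reads.

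The 12994 genes that reached 1 FPKM in 2 or more libraries were analysed as log2(FPKM + 1) in limma 3.58.1 (R 4.3.3), with group means, all 8 libraries, a mean-variance trend, two-sided moderated tests and Benjamini-Hochberg adjustment over all genes tested. The model had 4 residual and 2.72 prior degrees of freedom and assumes an equal spread in every group. Effects of medium and EphrinB2 use shared groups and are not independent of each other. The scripts were tested on simulated data. Genes named are the 10 in every comparison, up to 4 with the smallest p among those past the threshold from each pathway list, or where none passed the 1 with the smallest p, and the 2 genes nearest in profile. From the cell type markers, genes were named after their values were seen. The members and the 14 lists were chosen with earlier results of these data known. Alternatives were a pseudocount of 0.1, no filter, median centring, exon length correction (a lowess of each library's deviation on log length, span 0.3), no trend, the 4 libraries compared alone, the fit without both libraries that stood apart, and each library left out. The exon length correction covers the 12983 genes with a known length.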

Additional observations from a re-analysis of the deposited data

Results flagged for a closer look

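Stim2 was the gene whose libraries moved in opposite ways with EphrinB2 in each medium. In complete medium both EphrinB2 libraries (10.8 and 14.9 FPKM) lay above both vector libraries (9.98 and 9.998), a log2 difference of 0.318. In osteogenic medium both EphrinB2 libraries (5.68 and 5.91 FPKM) lay below both vector libraries (6.69 and 6.64), a log2 difference of -0.175. Neither passed the threshold, and the difference between them, tested as the interaction, was -0.49 with a limma adjusted p = 0.746. The higher EphrinB2 library in complete medium is the one taken as standing apart in that group.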

How the results depend on the processing

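No paired analysis was possible because the labels give no replicate numbers shared between groups. The count of genes past the threshold between media in vector cells, 4, became 8 with the 4 libraries compared alone and 8 without both EphrinB2 libraries that stood apart, and ran from 1 to 4 when single libraries were left out. In EphrinB2 cells it was 4 and became 1 with the 4 libraries compared alone. For EphrinB2 in osteogenic medium it was 0, and 0 to 2 with single libraries left out. The causes were not tested, but leaving out a library leaves a group with 1 sample, assumed to vary like the others. Of the values of single genes under an alternative, 42 turned sign, all in comparisons in which the gene had not passed. With the exon length correction these were Orai1 at -0.10 between media in EphrinB2 cells, Cacna1c at -0.0567 for EphrinB2 in complete medium, and Stim1 at 0.0212, Cacna1c at 0.14 and Cacna1g at 0.20 for EphrinB2 in osteogenic medium. For the interaction they were Orai1 at -0.17, Cacna1c at 0.20, Cacna1g at 0.12 and Nfatc4 at 0.0514. With a pseudocount of 0.1, Cacna1c stood at -0.00845 for EphrinB2 in complete medium. Without both libraries that stood apart, Nfatc4 stood at 0.0721 between media in EphrinB2 cells. For EphrinB2 in complete medium Stim1 and Nfatc2 then stood at -0.11 each, Trpv2 at -0.0217, Cacna1c at -0.39 and Nfatc1 at -0.0379, and in osteogenic medium Stim1 at 0.11. For the interaction Stim1 and Nfatc4 stood at 0.22 each, Orai1 at -0.00369 and Cacna1c at 0.35. With single libraries left out, Orai1 ran from -0.0532 to 0.17 between media in vector and from -0.0228 to 0.40 in EphrinB2 cells, and Nfatc1 from -0.23 to 0.35 in the latter. For EphrinB2 in complete medium Stim1 ran from -0.11 to 0.38, Trpv2 from -0.0217 to 0.18, Cacna1c from -0.39 to 0.41, Nfatc1 from -0.0379 to 0.15 and Nfatc2 from -0.11 to 0.23, and in osteogenic medium Stim1 from -0.60 to 0.11. For the interaction Orai1 ran from -0.0797 to 0.35, Trpv2 from -0.0787 to 0.13, Trpv4 from -0.13 to 0.00236, Cacna1c from -0.74 to 0.0634 and Nfatc4 from -0.23 to 0.11. Without the filter on low values, Nfatc2 at 1.18 in vector cells (adjusted p = 0.0603, over the alternatives 0.00277 to 0.182) and Stim1 at 1.42 in EphrinB2 cells (adjusted p = 0.0576, over the alternatives 0.000536 to 0.158) no longer passed. Depth limits Cacna1g in osteogenic medium, at 1 to 14 reads a library.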
